A study of Mus musculus with 384 samples.

Results

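The 10 genes described here are Tnf, which encodes the cytokine TNF, and 9 genes of the NF-kB feedback circuit: Nfkbia, Nfkbiz, Nfkbid, Nfkb1, Nfkb2, Relb, Tnfaip3, Tnip1 and Gadd45b. They were chosen by name, as rows of a table of 23420 genes, and all 10 had a row. Their detection, their level and their co-variation were followed across single neutrophils within each plate. A neutrophil was any cell in which S100a8 plus S100a9, the subunits of the abundant neutrophil protein calprotectin, reached 10000 TPM (a transcript level scaled to gene length and to a total of 1000000 per cell). The cells came from spinal cords of mice labelled Optn KO, a knockout of optineurin. Optineurin binds ubiquitin chains, serves as a receptor for selective autophagy and takes part in signalling downstream of TNF. The cord was dissociated with Accutase and freed of myelin. Stained cells (CD45, CD11b, CX3CR1) were sorted singly into plates for Smart-seq2, a full-length method without molecular identifiers. Values were at hand for 326 of the 384 labelled cells, spread over 4 plates, and 58 cells were not analysed here. Plates 1 and 2 belong to replicate 1 and plates 3 and 4 to replicate 2. The labels give neither age nor strain, and they do not say whether the replicates are separate mice. The p-values therefore rest on how differences between cell classes vary between these 2 samples, combined with a variance estimated over all genes. That variation may be technical. Every cell carries the knockout and no other genotype was used here, so no effect of losing optineurin was measured.

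TNF binds receptors that recruit ubiquitin ligases and kinases. These release NF-kB dimers from inhibitory IkB proteins, and the dimers then switch on target genes. Several targets feed back on the pathway: IkB proteins such as the product of Nfkbia retain NF-kB or export it from the nucleus, and the Tnfaip3 protein, with its partner encoded by Tnip1, trims the ubiquitin chains that carry the signal. Neutrophils are known to switch these genes on quickly when they meet microbial products or cytokines, and tissue dissociation can also induce early-response genes.

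Of the 326 cells, 286 were neutrophils by the S100 rule (131 in replicate 1 and 155 in replicate 2) and 40 were other sorted cells (23 and 17). The series names the sorted cells as microglia. In the neutrophils, 7 of 14 microglia markers were listed at 0 in every cell, Sall1, Trem2 and Fcrls among them, and the median cell had 0 of the 14. The median neutrophil had 8 of the 9 matched neutrophil markers above 0. Those 9 include S100a8 and S100a9, which the rule itself uses, so part of this count was fixed in advance. The lowest S100 sums inside the rule were 12512 and 13435 TPM, and the highest outside it were 4019 and 3063 TPM. Of the other cells, 30 had at least 3 monocyte markers above 0. The TPM table keeps no sequencing depth, so the number of genes above 0 stands in for it: its median was 1604.5 in the neutrophils and 3027.5 in the other cells. Optn was listed at 0 in all 326 cells. A listed 0 can be a missed transcript, since Gapdh, which every cell uses, was listed at 0 in 6 neutrophils and Eef1a1 in 68.

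Sequence before the start sites was searched next. The members were chosen as genes of the NF-kB feedback circuit, so a high share with a match is no independent result. The 250 bases before each RefSeq start (GRCm38.p6) were searched on both strands for the NF-kB consensus (kB site), with overlapping matches merged. Of the 10 members, 7 had a start in the table. A match was found for 5 of these 7 members, and for 4.46% of all 27025 genes at any start. By start, matches lay before 7 of the 12 starts of members, and before 3.90% of all 32851 starts. The windows below show every match of these 5 members except those before the 2 downstream starts of Nfkb2, and the capitals mark the match:
Nfkbia: gactggcttGGAAATTCCCcgcgcctga
Nfkbid: ggccgaacaGGAATTCCCCgtgcgcggg
Nfkbid: ccccgccctGGGACTTCCCagagcacca
Tnfaip3: atttccatcGGAAATCCCCct
Tnfaip3: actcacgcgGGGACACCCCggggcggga
Tnip1: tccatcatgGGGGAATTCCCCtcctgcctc
Nfkb2: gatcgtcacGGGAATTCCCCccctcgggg
Nfkb2: gggccgaaaGGGGCTTTCCc
The Nfkbia window is chr12:55492658-55492685 on the minus strand, with the match at bases -29 to -20 from the start. The Nfkbid windows are chr7:30422216-30422243 and chr7:30422171-30422198 on the plus strand. The Tnfaip3 windows are chr10:19015411-19015431 and chr10:19015517-19015544, minus strand. The Tnip1 window, chr11:54962978-54963007 on the minus strand, holds 4 overlapping matches merged into a palindromic run. The Nfkb2 windows are chr19:46304689-46304717 and chr19:46304717-46304736, plus strand, with matches at bases -39 to -29 and -11 to -2 from the start. Tnf and Gadd45b had no match in these windows, and Nfkbiz, Nfkb1 and Relb had no entry. A match is a run of letters and says nothing of binding.

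Tnf, the ligand, was listed above 0 in 66 of 286 neutrophils (23.1%, exact 95% binomial interval 18.3 to 28.4). Such intervals cover counting error only. The gene lies at chr17:35199381-35202007 on the minus strand (GENCODE vM21, GRCm38, as are the coordinates below). The share was 17.9% and 32.8% in plates 1 and 2 and 18.2% and 24.4% in plates 3 and 4. Its mean level was 111 TPM in replicate 1 and 93.0 TPM in replicate 2. Neutrophils with Tnf had a median of 294 TPM and a highest value of 2732 TPM. So Tnf transcripts were found in a minority of neutrophils at this depth, and plate 2 stood above the other plates in share but not in mean level.

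The 3 inhibitor genes of the IkB family were the members found most often. Nfkbia (chr12:55489410-55492647, minus strand), which encodes the classical inhibitor IkB alpha, was above 0 in 70.1%, 68.8%, 61.0% and 74.4% of the neutrophils of plates 1 to 4. Its mean level was 1799 TPM in replicate 1 and 1542 TPM in replicate 2. The spread between cells was wide: the median of cells with Nfkbia was 984.5 TPM and the highest value was 21476 TPM. Nfkbiz (chr16:55811375-55838899, minus strand) encodes the nuclear IkB zeta, a co-factor for a subset of NF-kB targets. It was above 0 in 61.2%, 71.9%, 62.3% and 62.8% of neutrophils in plates 1 to 4, with means of 458 and 402 TPM in replicates 1 and 2. Nfkbid (chr7:30421732-30428746, plus strand), which encodes another nuclear IkB protein, was above 0 in 53.7%, 64.1%, 57.1% and 51.3%, with means of 362 and 258 TPM. Each of the 3 genes was thus above 0 in over 50% of the neutrophils of every plate, and listed at 0 in the rest.

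The subunit genes were rarer. Nfkb2 (chr19:46304320-46312385, plus strand), the precursor of a non-canonical subunit, was above 0 in 22.2% ± 3.13 of neutrophils (SD, n = 2 replicates) at 30.8 TPM ± 2.0. Nfkb1 (chr3:135584655-135691547, minus strand), the precursor of a canonical subunit, was above 0 in 12.2% ± 1.03 at 22.4 TPM ± 12.4. Plate 2 was low for Nfkb1, at 4 of 64 cells and 2.24 TPM, against 24.5 to 32.9 TPM in the other plates. Relb (chr7:19606217-19629438, minus strand), the partner of the mature Nfkb2 product, was above 0 in 26 neutrophils, and 79.6% of its summed TPM came from 5 cells. The Relb mean of 14.1 TPM ± 8.72 therefore describes a handful of cells. The abundant neutrophil transcripts of the circuit were those of inhibitors and not of subunits; Rela, which encodes the main activating subunit and is not a member, was above 0 in 31.6% ± 2.77 at 86.9 TPM ± 2.0.

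Tnfaip3 (chr10:19000910-19015657, minus strand), the ubiquitin-editing enzyme, was above 0 in 28.4%, 29.7%, 19.5% and 20.5% of neutrophils in plates 1 to 4. Both plates of replicate 1 were above both plates of replicate 2 in share. In mean level the order was the other way, with 130 TPM in replicate 1 and 158 TPM in replicate 2. Tnip1 (chr11:54910785-54962917, minus strand) was above 0 in 17.6% ± 2.09 at 15.4 TPM ± 0.704. Gadd45b (chr10:80930073-80932204, plus strand), a stress-induced gene whose product restrains kinase signalling downstream of TNF, was above 0 in 29.9%, 26.6%, 15.6% and 23.1% of neutrophils. Its mean was 310 TPM in replicate 1 and 263 TPM in replicate 2, and 5 cells held 42% of its summed TPM. The highest Gadd45b value was 12826 TPM.

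By mean TPM in neutrophils, which is scaled to gene length, the members ran in the order Nfkbia (1670 ± 181), Nfkbiz (430 ± 39.2), Nfkbid (310 ± 73.4), Gadd45b (287 ± 33.6), Tnfaip3 (144 ± 19.9), Tnf (102 ± 12.4), Nfkb2 (30.8 ± 2.0), Nfkb1 (22.4 ± 12.4), Tnip1 (15.4 ± 0.704) and Relb (14.1 ± 8.72; SD, n = 2 replicates each). Nfkbid and Gadd45b did not differ beyond their spread, nor did Nfkb2 and Nfkb1, nor Nfkb1, Tnip1 and Relb. By share of cells, Tnfaip3, Gadd45b, Tnf and Nfkb2 did not differ beyond their spread, at 24.5% ± 6.37, 23.8% ± 6.29, 23.2% ± 2.76 and 22.2% ± 3.13.

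**Figure D1:**
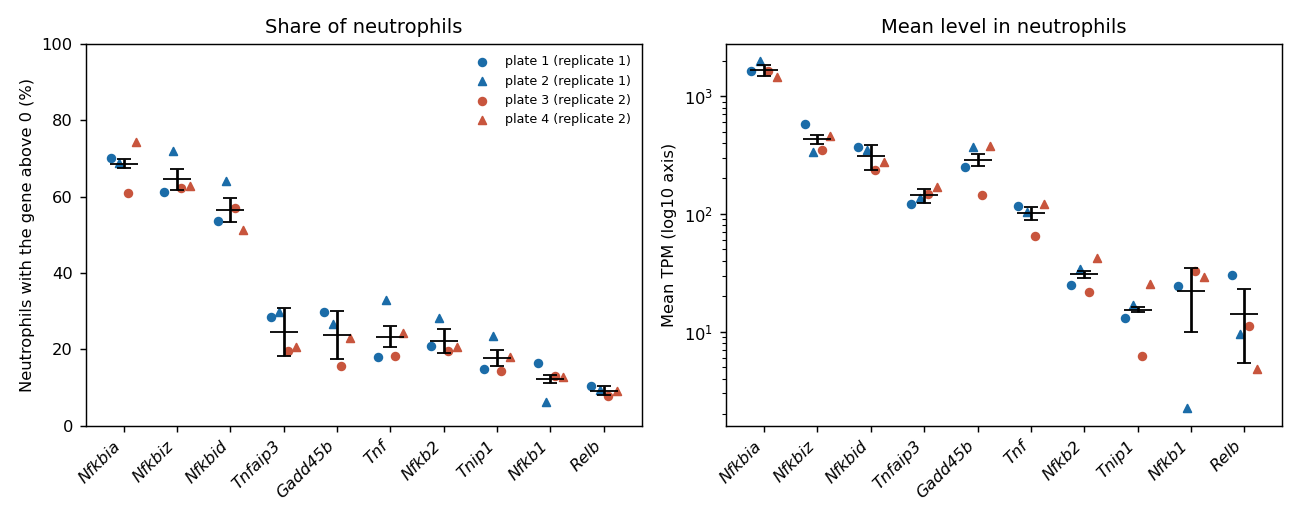
Share of neutrophils with each gene above 0 (left, %) and mean TPM (right, log10 axis), with a point for each plate and the mean ± SD of the 2 replicates in black. The 3 IkB genes lie above 50% in every plate, the other 7 genes lie below 33%, and Nfkb1 in plate 2 is the lowest mean at 2.24 TPM.

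The members differed in how their detection went with the number of genes detected. Neutrophils were divided into 3 equal classes by genes detected within each plate, with medians of 1321, 1613 and 2121.5 genes. Tnf was above 0 in 11.3% of the lowest class, 21.1% of the middle and 37.2% of the highest, yet its mean TPM was 89.0, 88.6 and 126. Nfkb1 was above 0 in 7.22%, 5.26% and 24.5%. Nfkbiz was flat, at 66.0%, 62.1% and 64.9%, and so was Tnfaip3, at 25.8%, 22.1% and 24.5%. Nfkbia was above 0 in 61.9%, 69.5% and 74.5%, higher in each class than in the one before, and Gadd45b in 27.8%, 21.1% and 21.3%, highest in the cells with fewest genes. Mean TPM of the 3 IkB genes fell from the lowest class to the highest. Nfkbia averaged 2505, 1411 and 1038 TPM, Nfkbiz 544, 410 and 325 TPM, and Nfkbid 460, 291 and 161 TPM. Gadd45b averaged 653, 113 and 77.5 TPM, so its share and its mean were both highest in the lowest class. The neutrophils with few detected genes thus held the highest mean TPM of the 3 IkB genes and Gadd45b. Mean Nfkb1, Nfkb2, Relb and Tnfaip3 were also highest in that class, and mean Tnf and Tnip1 were not. The part of the total captured per cell in this was not tested.

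**Figure D2:**
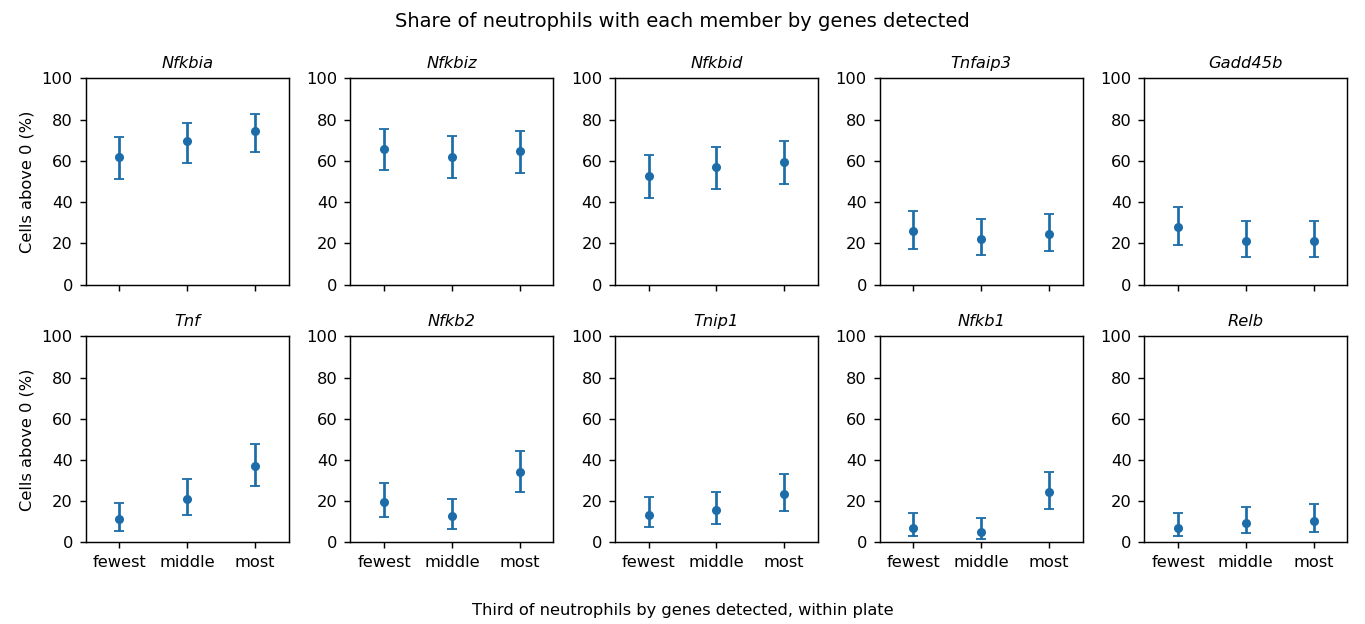
Share of neutrophils with each gene above 0 (%) in 3 equal classes of cells ranked by genes detected within plate, from fewest to most, with exact 95% binomial intervals. Tnf climbs across the classes to 37.2%, whereas Nfkbiz stays between 62.1% and 66.0%.

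Most pairs of members were found in the same cells more often than their single shares give. For each of the 45 pairs, cells were classed as above 0 or not for each gene, and an odds ratio was taken within plate and within 2 equal classes of genes detected. The odds ratio was above 1 for 39 pairs and above 2 for 20. Pairs of other genes were not counted this way, so no background share stands beside these counts. Differences in genes detected remain within each class, and their part was not tested. Phi, the correlation of the 2 detected-or-not values, was above 0 in all 4 plates for 19 pairs and below 0 in all 4 for 0 pairs. The points of each plate are cells of that plate and share its library preparation, so these are descriptions without a p.

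The pair that went together most was Tnfaip3 and Gadd45b, both brakes on TNF signalling. Of the 69 neutrophils with Tnfaip3 and the 67 with Gadd45b, 38 had both (odds ratio 8.35). Phi was 0.39, 0.54, 0.42 and 0.32 in plates 1 to 4, so every plate showed it. Nfkbiz and Tnfaip3 followed with 61 shared cells (odds ratio 5.80), then Nfkbid with Tnfaip3 (54 cells, 3.65), and Nfkbia with Nfkb2 (57 cells, 5.66). Tnf went most with Gadd45b, in 27 shared cells (odds ratio 3.71), and with Nfkb2, in 26 (odds ratio 2.62). Plate 2 was high for both, with phi of 0.48 and 0.45 against at most 0.19 in the other plates. The pairs with an odds ratio below 1 included Relb with Tnip1 (2 shared cells, 0.37) and Nfkbid with Nfkb1 (17 cells, 0.72).

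**Figure D3:**
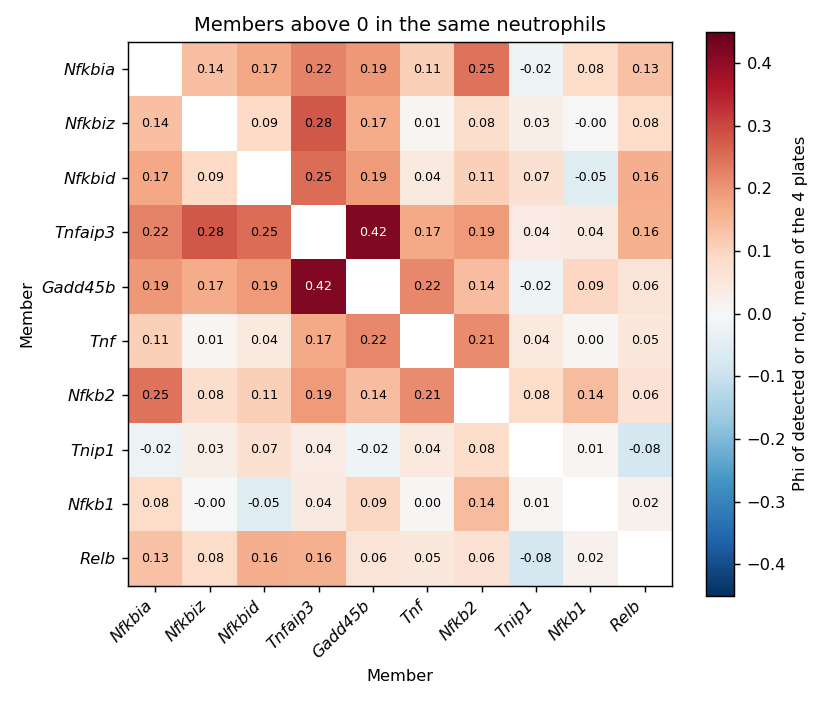
Phi of detected or not for each pair of the 10 genes in neutrophils, averaged over the 4 plates, with red above 0 and blue below. Tnfaip3 with Gadd45b has the highest value (0.42) and Relb with Tnip1 the lowest (-0.08).

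Most of the other members were above 0 in a larger share of the 69 neutrophils with Tnfaip3 than of the 217 without. Nfkbia was above 0 in 87.0% of them, against 62.7% of those without, and averaged 4568 TPM against 735 TPM. Nfkbiz was above 0 in 88.4%, against 56.7%, and averaged 1118 TPM against 208 TPM. Gadd45b was above 0 in 55.1%, against 13.4%, and averaged 934 TPM against 78.1 TPM. Both replicates showed the Gadd45b difference, with 60.5% against 15.1% in replicate 1 and 48.4% against 12.1% in replicate 2. Nfkb1 and Tnip1 differed little, at 14.5% against 11.5% and 20.3% against 16.6%. In replicate 1 both shares were lower with Tnfaip3, with 4 of 38 cells against 11 of 93 for Nfkb1 and 6 of 38 against 19 of 93 for Tnip1. Median genes detected were close, at 1672 with Tnfaip3 and 1586 without. Tnf itself was above 0 in 36.2% of cells with Tnfaip3, against 18.9% of those without. Cells with Tnf, in turn, had more genes detected (median 1869.5 against 1528.5), so their higher shares of Nfkb2 (39.4% against 16.8%) and Gadd45b (40.9% against 18.2%) came with a depth difference, whose part was not tested.

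Counted per cell, 12 of the 286 neutrophils had none of the 10 genes above 0, 37 had 1, 65 had 2, 68 had 3, 43 had 4 and 61 had 5 or more. The most in any cell was 8, in 7 cells. The median was 3 in both replicates.

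Among the 3 members above 0 in at least 20% of neutrophils in every plate, levels moved together within plates. The measure was Spearman's correlation of log2(TPM + 1) after removing the trend with genes detected. Nfkbia and Nfkbiz had 0.47, 0.51, 0.37 and 0.40 in plates 1 to 4. Nfkbia and Nfkbid had 0.28, 0.48, 0.36 and 0.42, and Nfkbiz and Nfkbid 0.18, 0.43, 0.16 and 0.21. The mean over the 3 pairs and 4 plates was 0.36, and phi of detected or not, taken without removing that trend, averaged 0.13 over the same pairs. Cells at 0 enter both measures. Among cells at 0 the order of the residuals is set by genes detected, so the ranks are not fully free of that trend. In plate 3, Nfkbia and Nfkbiz had a phi of -0.02 beside the rank correlation of 0.37.

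Of 2226 other genes at that share, the 3 whose levels were most like the mean of the 3 inhibitors were Zfp36 (mean correlation over 4 plates 0.39), Cxcl2 (0.36) and Ier3 (0.31). Zfp36 encodes tristetraprolin, which destabilises cytokine mRNAs, Cxcl2 encodes a neutrophil-attracting chemokine and Ier3 an early-response survival factor. The next 7 were Marcksl1, Clec4e, Ptafr, Fth1, Pilrb2, Ier2 and Il1b, at 0.27 to 0.24. Taken singly, Nfkbia was most like Zfp36 (0.35), Nfkbiz also Zfp36 (0.41) and Nfkbid Cxcl2 (0.28). These are weak to moderate correlations over 286 cells that share plates.

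Neutrophils lose specific granule transcripts such as Ltf, Camp and Ngp as they mature in the marrow. Ranking cells by these transcripts does not use the members. A granule score (mean log2(TPM + 1) of 7 specific granule genes, adjusted for genes detected) was ranked within each plate, and the lowest of 3 equal classes (94 cells, granule-low) was compared with the highest (94 cells, granule-high). A low score does not stand for maturity alone, since the granule-low class also held cycling cells. Up to 16 of 16 proliferation genes were above 0 in a granule-low cell, against at most 9 in granule-high cells (median 2 in both). Their summed level averaged 1377 TPM in granule-low cells and 597 TPM in granule-high cells. TPM was averaged per class and replicate and fitted with limma across 4046 genes, with the replicate as a block. Fold changes are on the log2(mean TPM + 1) scale, which understates those of low genes. The fit called 381 genes higher in granule-low cells (9.42%) and 119 lower (2.94%). Of the 9 members tested, 3 were higher and 0 lower, so the share called higher was above the background share in count. The 10th, Relb, was under the filter on low values.

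Gadd45b differed the most. It averaged 684 and 687 TPM in granule-low cells of replicates 1 and 2, against 88.2 and 70.3 TPM in granule-high cells. The averages of the classes did not overlap between replicates. The log2 fold was 3.11 (SE 0.33; limma, adjusted p = 0.000165; higher in 4 of 4 plates, 2.72 to 3.53). Both the share and the level differed: 31.9% of granule-low cells had Gadd45b, with a median of 1443 TPM in those cells, against 18.1% and 320 TPM in granule-high cells. In the granule-low class 5 cells held 53.0% of its summed TPM. Averages of log2(TPM + 1) gave a smaller log2 fold of 1.65 (limma, adjusted p = 0.00371). The Gadd45b call was lost in 2 of 20 alternatives, and the fold was above 0 in all 20. Granule-low cells also had fewer genes detected (median 1427.5, against 1821.5 in granule-high cells). Mean Gadd45b, Nfkbia and Nfkbid were highest in neutrophils with few genes, as given above for the classes by genes detected. The part of this in the granule-class differences of these genes was not tested.

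Nfkbia rose in granule-low cells, to 2610 and 2529 TPM, against 1036 and 1130 TPM in granule-high cells (log2 fold 1.25, SE 0.16; limma, adjusted p = 0.000562; higher in 4 of 4 plates, 0.82 to 1.5). The share of cells with Nfkbia hardly differed, at 73.4% against 71.3%, whereas the median of cells with it was 1259 TPM against 719 TPM. The Nfkbia call was lost in 3 of 20 alternatives, among them averages of log2(TPM + 1) (log2 fold 0.81; limma, adjusted p = 0.304), and the fold was above 0 in all 20. Nfkbid rose to 540 and 406 TPM in granule-low cells, against 223 and 178 TPM in granule-high cells (log2 fold 1.23, SE 0.29; limma, adjusted p = 0.0200; higher in 4 of 4 plates). The Nfkbid call was lost in 9 of 20 alternatives, among them TPM rescaled without the S100 and granule genes (log2 fold 0.83; limma, adjusted p = 0.111), although it stayed higher in all 20.

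Tnf did not follow them. It averaged 94.9 and 75.7 TPM in granule-low cells, against 64.3 and 131 TPM in granule-high cells (log2 fold -0.12, SE 0.49; limma, adjusted p = 0.917), so the replicates went opposite ways. By plate the log2 fold of Tnf was 2.41, -0.84, -1.58 and -0.49 in plates 1 to 4, so only plate 1 was higher in granule-low cells. With averages of log2(TPM + 1) it was -1.03, lower in both replicates and not called (limma, adjusted p = 0.0560). Fewer granule-low cells had Tnf above 0, in all 4 plates: 9.09%, 23.8%, 8.0% and 15.4%, against 13.6%, 42.9%, 20% and 34.6% in granule-high cells. The few that had it held more, with a median of 430 TPM against 242 TPM. The part of the fewer genes detected in granule-low cells in the Tnf share was not tested either. The share was not put to a test.

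The other members did not pass. Nfkbiz had a log2 fold of 0.45, Tnfaip3 0.54, Nfkb1 1.14, Tnip1 1.35 and Nfkb2 -0.22, with limma adjusted p between 0.309 and 0.876. Nfkb1 and Tnip1 had standard errors of 0.85 and 0.81, so a change of the size seen for Nfkbia could not have been told from none. Without replicate 1, in a fit of plate averages, 0 members and 23 genes passed (limma, 4 members at an unadjusted p under 0.05), and without replicate 2 Nfkbia and Gadd45b passed with 157 genes. The median fold of all genes was 0.32, and -0.05 with TPM rescaled without the S100 and granule genes, where the split of calls was 195 higher to 173 lower. Relative to that median, Gadd45b stood at 2.78 as deposited and 2.75 rescaled, and Nfkbia at 0.92 and 0.84.

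**Figure D4:**
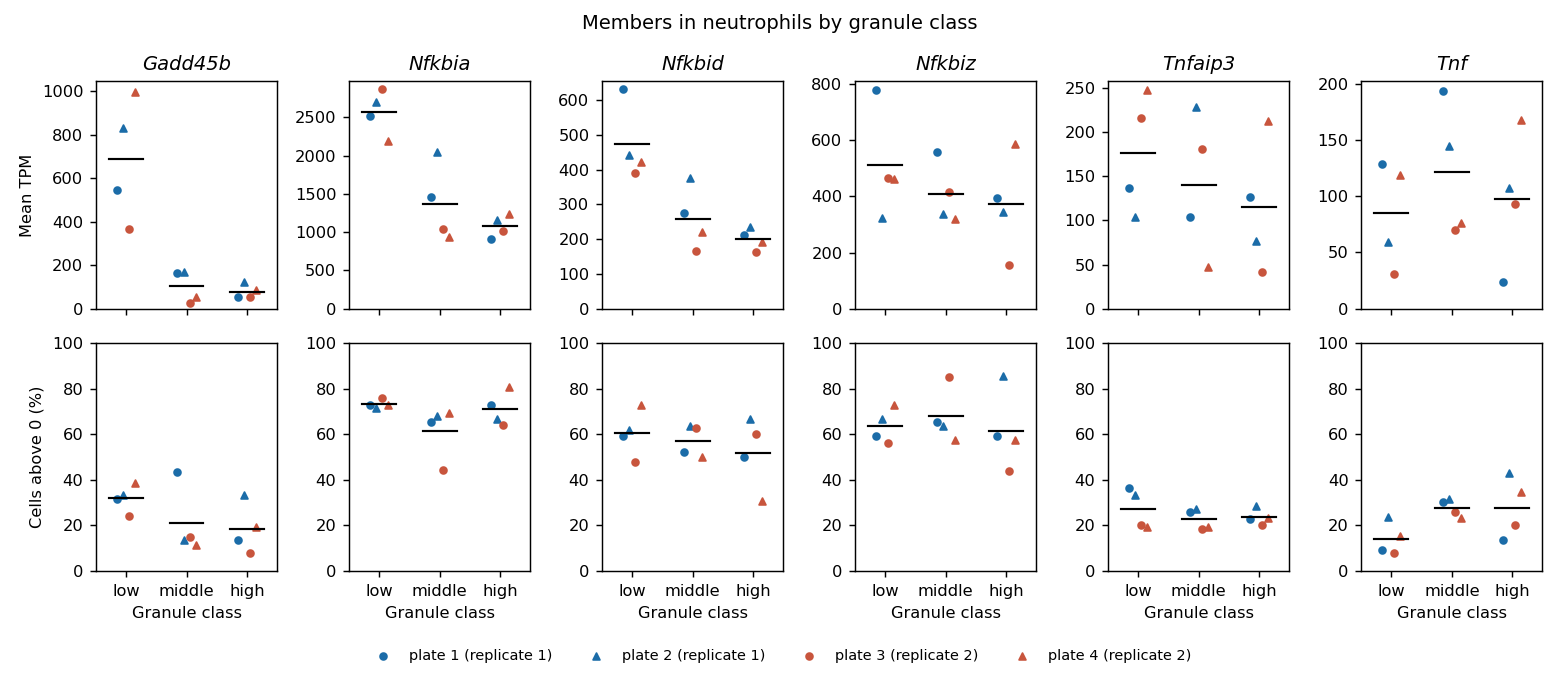
Mean TPM (top) and share of cells above 0 (bottom, %) of 6 members in granule-low, granule-middle and granule-high neutrophils, with a point for each plate and a bar at the mean of the 2 replicates. Gadd45b and Nfkbia are higher in mean TPM in granule-low cells in all 4 plates, while the share with Tnf is lower there in all 4.

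The rest of the pathway was described by lists chosen by function, against a background of 9.42% of genes called higher. Of the 9 tested receptors and ligand relatives, 5 were higher in granule-low cells and 0 lower, with a median log2 fold of 1.08 against 0.32 over all genes. Tnfrsf1b, the second TNF receptor, averaged 122 and 128 TPM, against 1.81 and 13.7 TPM (log2 fold 4.29; limma, adjusted p = 0.00480). Tnfrsf1a, the main TNF receptor, averaged 673 and 706 TPM, against 201 and 238 TPM (1.65; limma, adjusted p = 0.00265). Of 12 adaptors and ubiquitin genes 1 was higher, Myd88, and of 5 kinases and 4 other NF-kB subunits or inhibitors 0 were called in either direction (limma; 1 and 0 at an unadjusted p under 0.05). Shares of 1 in 12, 0 in 5 and 0 in 4 are near that background, and the lists' median log2 folds were 0.28, 0.38 and 0.68.

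Of 14 tested NF-kB target genes, 7 were higher and 1 lower. Il1b, the inflammatory cytokine interleukin-1 beta, averaged 14122 and 16759 TPM in granule-low cells, against 305 and 739 TPM in granule-high cells (log2 fold 5.01; limma, adjusted p = 1.84e-06). Cxcl2 averaged 2182 and 1585 TPM, against 386 and 252 TPM (2.57; limma, adjusted p = 2.20e-05). Ptgs2, Nlrp3 and Irf1 were also higher. Early-response genes moved with them: 10 of 15 tested were higher and 0 lower, with a median log2 fold of 1.88. Their summed level averaged 36054 TPM in granule-low cells and 8167 TPM in granule-high cells. Atf3 averaged 836 and 576 TPM in granule-low cells and was listed at 0 in all granule-high cells, and Dusp1 averaged 8822 and 10643 TPM against 771 and 1343 TPM. Of 5 tested proliferation genes, Ube2c and Birc5 were higher, and leaving out cells with 5 or more proliferation genes kept the Nfkbia and Gadd45b calls and lost that of Nfkbid. The part of early-response induction during dissociation in the member differences was not tested.

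Neutrophils were then compared with the 40 other sorted cells by the same fit over 7516 genes, with S100a8 and S100a9 left out. It called 387 genes higher in neutrophils (5.15%) and 1544 lower (20.5%). Of 9 members tested, 1 was higher and 1 lower. Gadd45b averaged 310 and 263 TPM in neutrophils of replicates 1 and 2, against 131 and 112 TPM in the other cells (log2 fold 1.24, SE 0.38; limma, adjusted p = 0.0233; higher in 4 of 4 plates). Nfkb1 averaged 13.6 and 31.1 TPM in neutrophils, against 65.4 and 92.9 TPM (log2 fold -1.86, SE 0.64; limma, adjusted p = 0.0433; lower in 3 of 4 plates). Neither call held in the fit of plate averages. The Nfkb1 call was lost in 13 of 22 alternatives, and its fold was below 0 in all 22. The Gadd45b call was lost in 6 with the direction kept, and its fold turned to -0.11 when log values were averaged. The share with Gadd45b above 0 was lower in neutrophils, at 23.4%. It was 9 of 30 in other cells with at least 3 monocyte markers and 4 of 10 in those with fewer. Nfkbia was alike in mean, at 1799 and 1542 TPM against 1754 and 1312 TPM (log2 fold 0.13, SE 0.18), though found in a smaller share of neutrophils, 68.5% against 87.5%. The median fold of all genes was -0.81, and -0.41 with TPM rescaled, where the split was 475 higher to 922 lower.

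The 40 other cells were of mixed kind, and 10 of them had fewer than 3 monocyte markers. Of those 40, 6 had at least 5 neutrophil markers with fewer than 3 monocyte markers, so they resembled neutrophils below the S100 minimum. The 10 cells averaged 3702 TPM of Nfkbia, 1029 TPM of Nfkbiz and 1015 TPM of Nfkbid, above the 1660, 428 and 306 TPM of all 286 neutrophils. Of these 3 genes only Nfkbid was higher in both replicates, at 1319 and 558 TPM against 362 and 258 TPM. In replicate 2 they averaged 1440 TPM of Nfkbia and 192 TPM of Nfkbiz, below the 1542 and 402 TPM of neutrophils. The highest Nfkbiz value in the 10 cells was 7743 TPM, and their median was 28.7 TPM. The levels in the 30 cells with at least 3 monocyte markers are given next. That set was chosen after seeing the data and leaves out cells high in Nfkbia, Nfkbiz and Nfkbid, so its values are a description with no test.

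Nfkbid averaged 362 and 258 TPM in neutrophils of replicates 1 and 2, against 35.6 and 59.9 TPM in the monocyte-marker cells. Nfkbiz averaged 458 and 402 TPM in neutrophils, against 115 and 50.4 TPM. Tnf averaged 111 and 93.0 TPM in neutrophils, against 5.43 and 25.8 TPM, and was above 0 in 23.1% of neutrophils and 3 of 30 monocyte-marker cells. These 3 genes had the higher mean in neutrophils of both replicates, as did Tnfaip3, Gadd45b and Nfkbia, with log2 folds of 2.26, 2.17 and 1.01. Nfkb1 had the lower mean in both, at 13.6 and 31.1 TPM in neutrophils against 64.2 and 122 TPM, with 12.2% of neutrophils and 53.3% of monocyte-marker cells above 0.

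The way of averaging turned the direction of Nfkbia here. It was above 0 in 68.5% of neutrophils at a median of 984.5 TPM in those cells, and in 28 of 30 monocyte-marker cells at a median of 610 TPM. Averaging TPM gave a log2 fold of 1.01, whereas averaging log2(TPM + 1) gave -1.80. Tnfaip3 turned as well, to -0.36 with log averages. The median number of genes detected was 1604.5 in neutrophils and 3287 in the monocyte-marker cells.

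**Figure D5:**
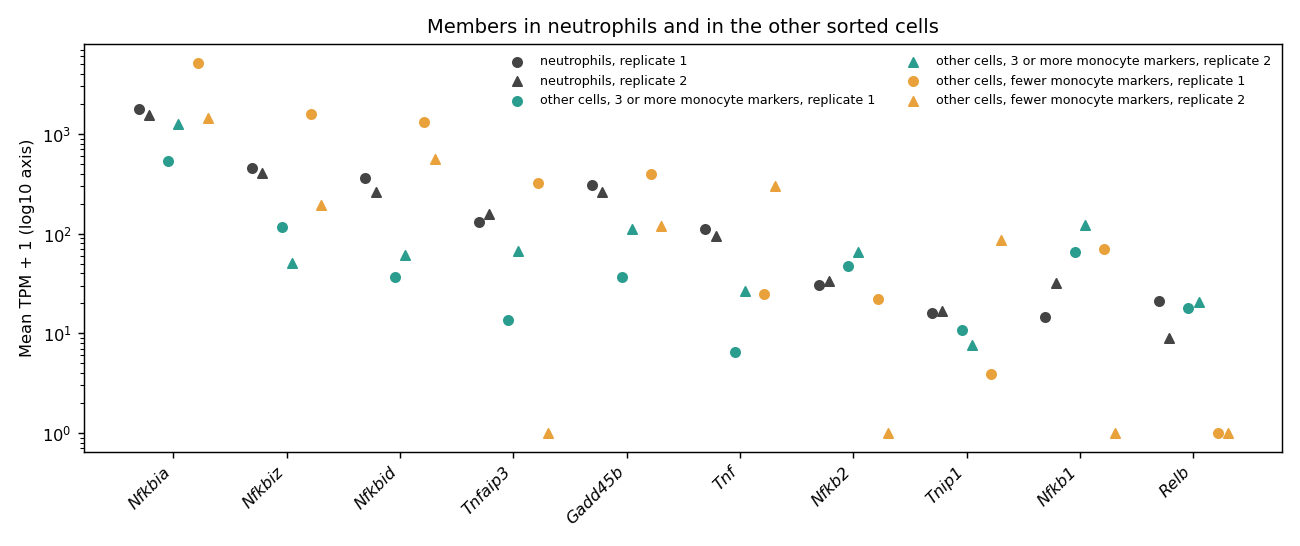
Mean TPM + 1 (log10 axis) of each member per replicate in neutrophils, in other cells with 3 or more monocyte markers and in other cells with fewer. Nfkbid, Nfkbiz and Tnf lie higher in neutrophils than in the monocyte-marker cells in both replicates, and Nfkb1 lies lower.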

How the data were processed

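The TPM values were deposited by the authors for 326 single cells. The submitters' processing notes name RSEM and the build mm10, with no versions. Which aligner and gene models went into them is not given in the sources used here. TPM sums to 1000000 per cell, keeps no depth and lets a few abundant genes lower all others. All cells passed a minimum of 500 genes above 0; no doublet caller was run. The member genes and lists were chosen with earlier results of these data known. All 10 members are named; from each other list, called genes with the 5 largest folds and the 2 most often detected could be named.

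TPM was averaged per class and replicate and tested with limma 3.58.1 (R 4.3.3; trend, robust) on log2(mean TPM + 1), the replicate as a block since both classes come from each replicate, with Benjamini-Hochberg adjustment and a threshold of 0.05. With 1 residual degree of freedom, the test rests mostly on limma's prior variance. Genes needed a mean of 5 TPM and 10% of cells above 0 (in either class for the neutrophil comparison). The fit was tested on simulated data with the same noise for every gene. The genes set to differ had larger log2 folds than Nfkbia and Nfkbid, so that run does not show how folds of their size are called. Rank correlations of residuals were kept to members at 20% or more in every plate, because for sparser genes the trend with genes detected dominates the residual ranks. Descriptions used Python 3.11.15, pandas 2.3.3, numpy 2.4.6 and scipy 1.17.1. List symbols without a row were Ly6g and Trac.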

Additional observations from a re-analysis of the deposited data

Results flagged for a closer look

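In 4 of 38 sets of 4 plate values, a plate stood far from the other plates by Dixon's test; chance flags about 1 set in 20. The share of neutrophils with Nfkbiz was 71.9% in plate 2, against 61.2% to 62.8% in the other plates. The share with Nfkb2 was 28.1% in plate 2, against 19.5% to 20.9%. The log2 fold of Tnfaip3 between granule-low and granule-high neutrophils was 2.35 in plate 3, against 0.12 to 0.42 elsewhere. The log2 fold of Gadd45b between neutrophils and the other sorted cells was 7.19 in plate 3, which has 8 other cells, against 0.84 to 1.86 elsewhere.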

How the results depend on the processing

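Between granule-low and granule-high neutrophils, 500 genes and 3 members passed. Genes numbered 313 with pseudocount 0.1, 774 with log averages, 183 with an S100 minimum of 20000 TPM, 294 without cycling cells, 160 without cells rich in Rn45s, and 23 to 157 when a replicate was left out (plate averages). Members were 1 with log averages (Gadd45b; Nfkbia and Nfkbid were lost) and 0 to 2 when a replicate was left out. Without the filter on low values limma called 0 genes and 0 members (1234 genes and 3 members at an unadjusted p under 0.05). Between neutrophils and other cells, 1931 genes and 2 members passed: 3258 genes with log averages, 251 to 1436 when a replicate was left out (plate averages, 1436 against the monocyte-marker cells), and 0 genes and 0 members without the filter (2313 and 2 at an unadjusted p under 0.05). Members were 4 with pseudocount 10, 0 with plate averages and 0 to 6 when a replicate was left out (6 against the monocyte-marker cells). Against the monocyte-marker cells they were 7, also rescaled, and this choice leaves out cells high in Nfkbia, Nfkbiz and Nfkbid. Gadd45b passed and Nfkb1 was lost with pseudocount 0.1, no replicate block, at least 1000 genes, TPM rescaled or an S100 minimum of 20000 TPM. The same held with no Rn45s-rich cells or no neutrophils with 3 or more markers of another type. The mean correlation was 0.36, and 0.13 as phi. Between granule classes the fit with no replicate block kept the 3 member calls.

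Several directions turned, among them that of Gadd45b, which was called higher in neutrophils than in other cells; the cause was not tested. In the granule comparison: leaving out a replicate gave Nfkb1 -0.46 to 2.70, Tnf -1.03 to 0.79 and Tnip1 -0.25 to 2.24; Nfkb2 turned without cycling cells (0.34), in 2 classes (0.48) and with the score not adjusted (0.40), Tnf and Tnfaip3 in 2 classes (0.013 and -0.016), and Nfkbiz rescaled (-0.015). Between neutrophils and other cells: with log averages Gadd45b (-0.11), Nfkbia (-1.61), Tnfaip3 (-0.24) and Tnip1 (-0.33), and against monocyte-marker cells Nfkbia (-1.80), Tnfaip3 (-0.36) and Tnip1 (-0.31); at an S100 minimum of 20000 TPM Nfkbia (-0.071) and Tnip1 (-0.14); Nfkb2 with plate averages (0.21), and -0.78 to 0.82 when a replicate was left out (the monocyte-marker comparison included); Tnip1 likewise -0.63 to 1.19, Nfkbiz -0.12 to 3.01 and Nfkbid -0.034 to 4.52. Leaving out a replicate from the replicate averages gives folds with no test. The plate-average fits of 1 replicate and the choices of cells by Rn45s, by monocyte markers and by markers of another type were added after seeing the data. Depth is unknown, so a listed 0 limits every share.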
